A study of Drosophila melanogaster with 36 samples.

Results

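Transcript levels in the abdominal fat body of dnClk flies were compared between hours of light and hours of darkness, to ask which transcripts still follow the light-dark cycle when Clock function is blocked. The comparison uses 8 of the 36 arrays in the series, chosen by genotype and collection time alone: 4 arrays from ZT 4, 8, 28 and 32 (light) and 4 from ZT 16, 20, 40 and 44 (dark). ZT counts hours from the first lights-on of the collection, so ZT 24 and later times belong to the second day. The other 4 dnClk arrays (ZT 0, 12, 24 and 36) were taken at the light switches and are given as levels only.

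All flies were adult males of Drosophila melanogaster, which after eclosion had spent 5 days at 25 °C in cycles of 12 h light and 12 h darkness. The genotype dnClk is named for a dominant-negative form of Clock, with a driver that these sources do not name. WT is w; UAS-dnClk/+, so it carries the transgene without a named driver. Each array holds RNA pooled from 10 fat bodies, and no time was sampled more than once in a genotype. The times of a phase therefore served as its replicates, and p-values measure the spread among them, which includes any change within the phase and may be partly technical.

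The fly clock is a feedback loop in which the transcription factors Clock and Cycle switch on per, tim, vri and Pdp1 towards the night. Period and Timeless proteins then block Clock and Cycle, Vrille and Pdp1 act back on the Clock gene, and Cryptochrome is the photoreceptor that resets the loop by light. Genes can also follow day and night without the local clock, through light, feeding or signals from other tissues. The fat body stores lipid and glycogen and makes many secreted and detoxifying proteins, which is why genes of those pathways are described after the clock genes.

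Values are log2(intensity + 16), a scale on which differences of dim probe sets are understated. The Clk probe set read 9.83, 9.48, 9.30 and 9.23 in the light arrays of dnClk and 9.58, 9.38, 9.49 and 9.35 in the dark arrays. All 8 lie above the WT arrays of the same hours, whose range was 6.58 to 7.61, and the light and dark arrays overlap. Whether this probe set reads the transgene was not tested. Markers of fat body (9 genes) averaged between 8.91 and 9.20 in the light arrays and between 8.91 and 9.20 in the dark arrays, which overlap. In the WT arrays they averaged 9.94 to 10.74, and the spiked hybridisation controls also read higher in WT, with a mean of 12.2 in light and 12.5 in dark against 10.2 and 10.5 in dnClk. Levels are therefore given beside each other across genotypes but only the light-dark differences are compared. The range of values was also narrower in dnClk. The 99th percentile of intensity was 1760 in light and 1937 in dark, against 3386 and 3971 in WT. The median log2 value of tested probe sets was 7.329 and 7.281, against 7.055 and 6.888 in WT. Whether this narrower range makes light-dark differences smaller in dnClk was not tested. Within dnClk the control spikes ranged from 10.09 to 10.30 in light and from 10.29 to 10.84 in dark, the highest at ZT 44 (exact permutation p = 0.0571, adjusted p = 0.267 over 14 array measures). In bulk tissue, fewer cells of a type and less RNA per cell cannot be told apart.

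No transcript passed the test between light and dark in dnClk. Of 11261 probe sets tested with limma, 0 (0%) had an adjusted p under 0.05, while 635 (5.64%) had an unadjusted p under 0.05, 276 (2.45%) higher in light and 359 (3.19%) higher in dark. An exact permutation test of each probe set also called 0, but its smallest possible p with 4 against 4 arrays is 0.0286, which cannot survive adjustment, and 316 probe sets reached it. Those 316 (2.81%) are the probe sets whose light and dark arrays did not overlap, 92 (0.817%) higher in light and 224 (1.99%) higher in dark. The split depends on scaling, with 79 higher in light and 402 higher in dark after quantile normalization, and 87 and 370 after each array was centred on its median. Counted by gene, 81 of 8472 (0.956%) did not overlap and were higher in light, and 141 (1.66%) were higher in dark. By mean alone, 3929 of the 8472 genes read higher in light and 4543 lower, the background for direction counts of lists below. That background was 3642 and 4830 after quantile normalization, and 3872 and 4600 after median centring.

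The same contrast in WT at the same hours gave 1 called probe set (0.00888%), 2262 (20.1%) at an unadjusted p under 0.05, and 829 (7.36%) without overlap, 172 (1.53%) higher in light and 657 (5.83%) higher in dark. That 1 probe set measures Cyp4d21. The WT count rests on the array of ZT 32, since 1603 probe sets passed without it, while 1 passed without any other single array. The genotype difference, the dnClk light-dark difference minus that of WT, was tested itself in 1 limma fit of the 16 arrays. It passed for 0 probe sets (0%), with 530 (4.71%) at an unadjusted p under 0.05, and for 12 without the WT array of ZT 32. Testis RNA was uneven between the WT arrays. The mean of 18 testis markers was 8.95 in WT light (6.27 to 10.25) and 6.14 in WT dark (5.19 to 6.98). With that mean as a covariate WT calls numbered 1 and genotype calls 0. Its part in the 1603, in the 12 and in the WT differences of single genes was not tested.

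Cyp4d21, a cytochrome P450 found in searches for sex-biased transcripts and also called sxe1, showed the smallest p in dnClk. It read 5.33, 5.41, 5.23 and 5.27 in the light arrays and 7.95, 7.84, 7.68 and 6.66 in the dark arrays. The 4 light arrays lie close together, every dark array is higher, and ZT 44 is the lowest of the dark arrays. At the light switches it read 5.22 and 5.24 at lights on and 7.08 and 7.23 at lights off, so it was already high when darkness began. The mean was 5.31 ± 0.08 in light and 7.53 ± 0.59 in dark (SD, n = 4 each), a light-minus-dark difference of -2.22 (SE 0.26, 95% interval -2.81 to -1.63), or 4.66-fold higher in dark. The limma p was 1.6e-05 and the adjusted p 0.18, past no threshold. On day 1 the difference was -2.53 and on day 2 it was -1.91.

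The call for Cyp4d21 turns on single choices, and its adjusted p ranged from 0.00023 to 0.767 over 24 alternatives. It passed without the ZT 44 array (difference -2.51, adjusted p = 0.00023), with all 12 dnClk arrays fitted as 4 groups (adjusted p = 0.0266), with the accessory gland markers as a covariate (adjusted p = 0.0136) and on day 2 alone (adjusted p = 0.0011). In WT the difference was -2.90 (SE 0.16, adjusted p = 0.000435). The genotype difference was 0.68 (95% interval 0.01 to 1.35, unadjusted p = 0.048, adjusted p = 0.72), so the dark excess was smaller in dnClk by an amount that does not pass across all probe sets.

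CG13833 was next among genes higher in dark. It read 7.46, 6.73, 6.85 and 6.47 in light and 8.13, 8.53, 8.40 and 7.96 in dark. The lowest dark array stands above the highest light array, which is ZT 4. The difference was -1.38 (SE 0.22, 95% interval -1.88 to -0.88), 2.6-fold higher in dark, with a limma p of 0.00016 and an adjusted p of 0.53. In WT it was -1.40 (SE 0.21), and the genotype difference was 0.02 with a 95% interval of -0.65 to 0.69. Both days gave the same direction, -1.24 on day 1 and -1.52 on day 2.

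**Figure D1:**
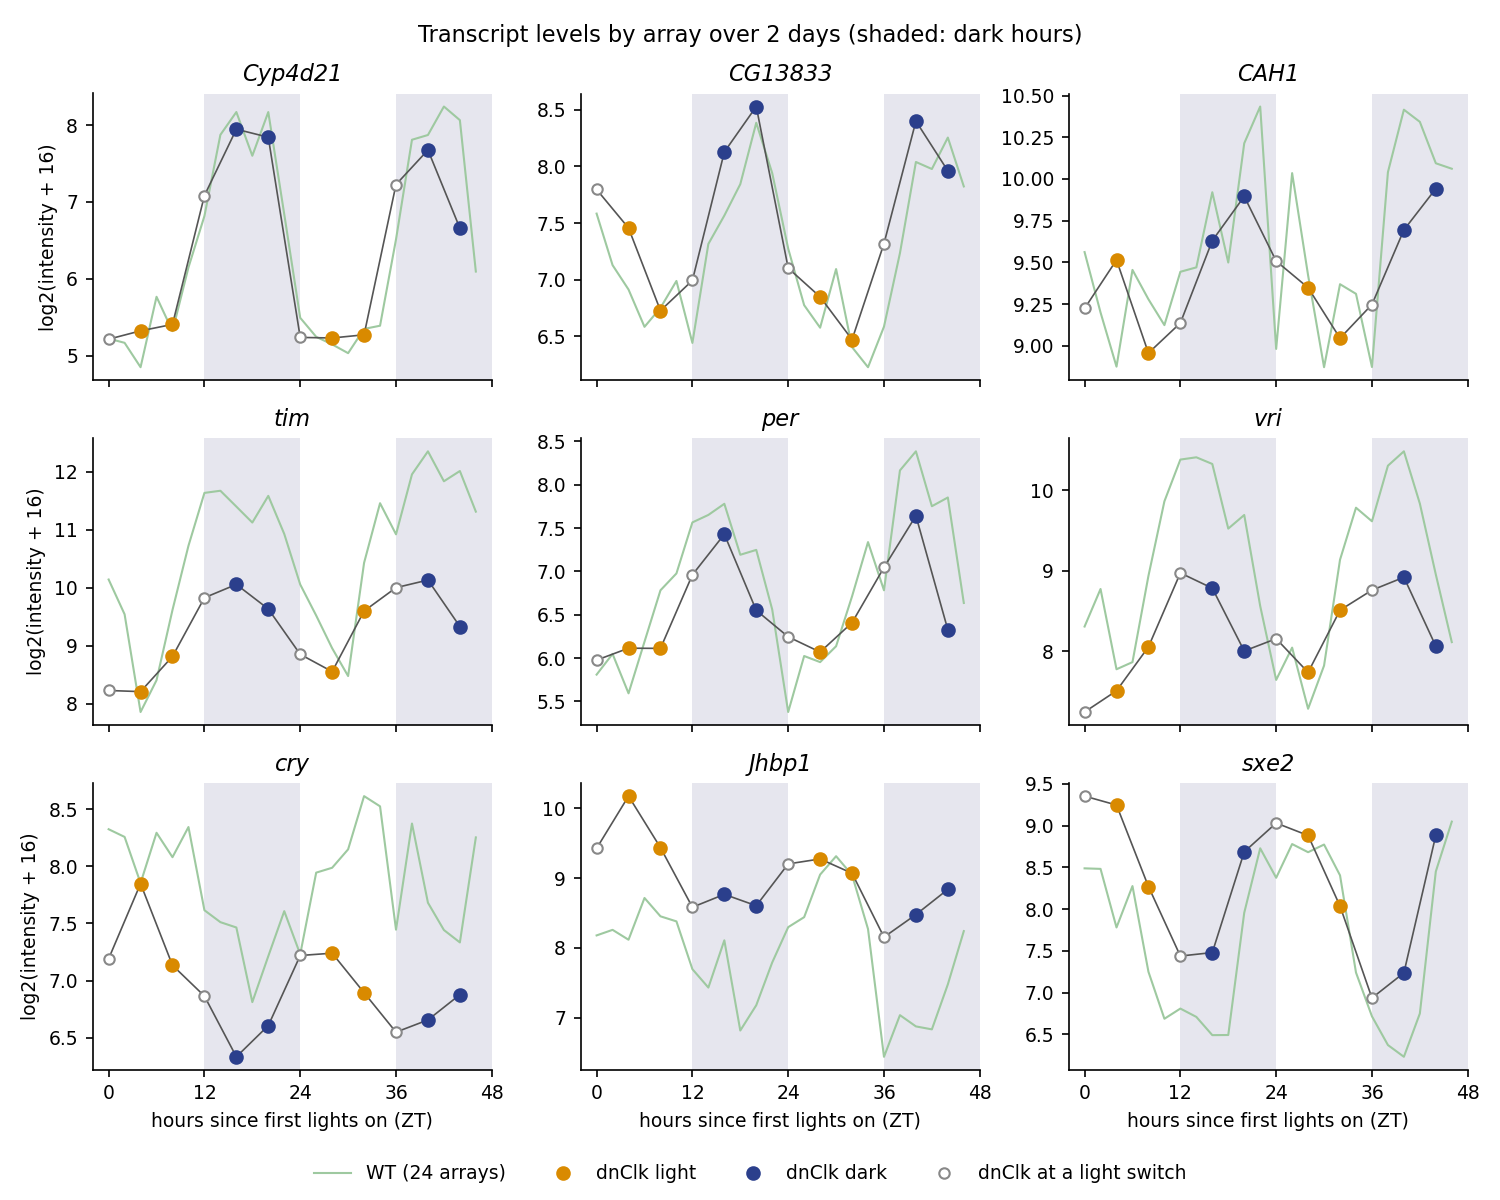
Levels of 9 genes by array against hours since the first lights-on (ZT), as log2(intensity + 16), with dark hours shaded. Filled points are the 4 light (orange) and 4 dark (blue) dnClk arrays compared, open points the dnClk arrays at a light switch, and the green line the 24 WT arrays. Cyp4d21 lies between 5.23 and 5.41 in the light arrays and between 6.66 and 7.95 in the dark arrays.

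Further genes with the smallest p among those higher in dark without overlap all had an adjusted p of 0.53. CAH1, a carbonic anhydrase, read 9.51, 8.96, 9.35 and 9.05 in light and 9.63, 9.90, 9.69 and 9.94 in dark, where ZT 4 is the light array nearest to the dark ones. Its difference was -0.57 (SE 0.15), against -0.92 (SE 0.18) in WT. Ccm3, which encodes an adaptor related to the human cerebral cavernous malformation protein, differed by -0.44 (SE 0.11) in dnClk and by -0.68 (SE 0.15) in WT.

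Another 7 genes without overlap in this direction had differences of less than 0.5. Adat1, a tRNA adenosine deaminase, differed by -0.45, cindr, an adaptor of the CIN85 and CD2AP type, by -0.42, and CG13230 by -0.39. A second cindr probe set differed by 0.043, with groups that overlap. The C-type lectin gene lectin-21Cb differed by -0.37, the zinc finger gene mld by -0.34, CG6770 by -0.32 and the formin gene form3 by -0.31. In WT the differences of these 7 ran from -0.53 for CG6770 to 0.29 for lectin-21Cb.

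Among genes higher in light without overlap, Mal-B1, an alpha-glucosidase of the maltase family, had the smallest p. It read 7.40, 7.34, 7.60 and 7.18 in light and 6.16, 6.32, 6.70 and 6.73 in dark. The lowest light array, ZT 32, stands above the highest dark array, ZT 44, and the difference was 0.91 (SE 0.16, 95% interval 0.54 to 1.27, unadjusted p = 0.00035, adjusted p = 0.53). In WT the difference was 0.02 (SE 0.46), with 4 light arrays between 9.47 and 11.57, and the genotype difference of 0.88 had an unadjusted p of 0.11.

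Jhbp1, of the takeout-like family of juvenile hormone-binding proteins, was higher in light in both genotypes. It read 10.18, 9.44, 9.28 and 9.07 in light and 8.77, 8.61, 8.48 and 8.84 in dark. No dark array reaches a light one, and ZT 4 stands highest. The difference was 0.82 (SE 0.23) in dnClk and 1.26 (SE 0.31) in WT, with a genotype difference of -0.44 (95% interval -1.31 to 0.43).

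A group of 3 genes was higher in light in dnClk and slightly lower in light in WT. The gene whe read 9.61, 9.98, 9.86 and 9.63 in light and 8.53, 8.70, 8.35 and 9.38 in dark, a difference of 1.03 (SE 0.22). CG16826 read 8.53, 9.19, 8.20 and 7.90 in light and 7.29, 7.18, 7.09 and 7.60 in dark, a difference of 1.16 (SE 0.26). Ag5r, which encodes a secreted protein of the antigen 5 family, differed by 0.98 (SE 0.24). In WT the differences were -0.31, -0.27 and -0.35. The WT light arrays of whe lay between 12.53 and 13.37, a level that, as said above, is not compared between genotypes. The genotype differences were 1.34, 1.43 and 1.33 with unadjusted p-values of 0.00083, 0.00059 and 0.0012, all with an adjusted p of 0.72. At the light switch of ZT 36, whe read 7.14 and CG16826 read 5.57, below every one of the 8 arrays compared. The 2 lights-on arrays of CG16826 disagree, with 8.67 at ZT 0 and 6.45 at ZT 24, the latter also below all 8.

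The other genes of the light-high set were CG1418 (0.79), CG7059 (0.65), apt, a transcription factor (0.64), Ktch (0.61), CG10126 (0.58), the UDP-galactose transporter gene Ugalt (0.45) and CG6928 (0.45), each with an adjusted p of 0.53. In WT, CG7059, CG1418, CG10126 and apt were higher in light by 0.74 to 1.61, while Ktch, Ugalt and CG6928 differed by -0.38 to -0.04. The genotype difference of Ugalt was 0.82 (unadjusted p = 0.0033, adjusted p = 0.72). With the mean of the testis markers as a covariate CG1418 differed by 0.39, CG10126 by 0.39 and apt by 0.35.

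**Figure D2:**
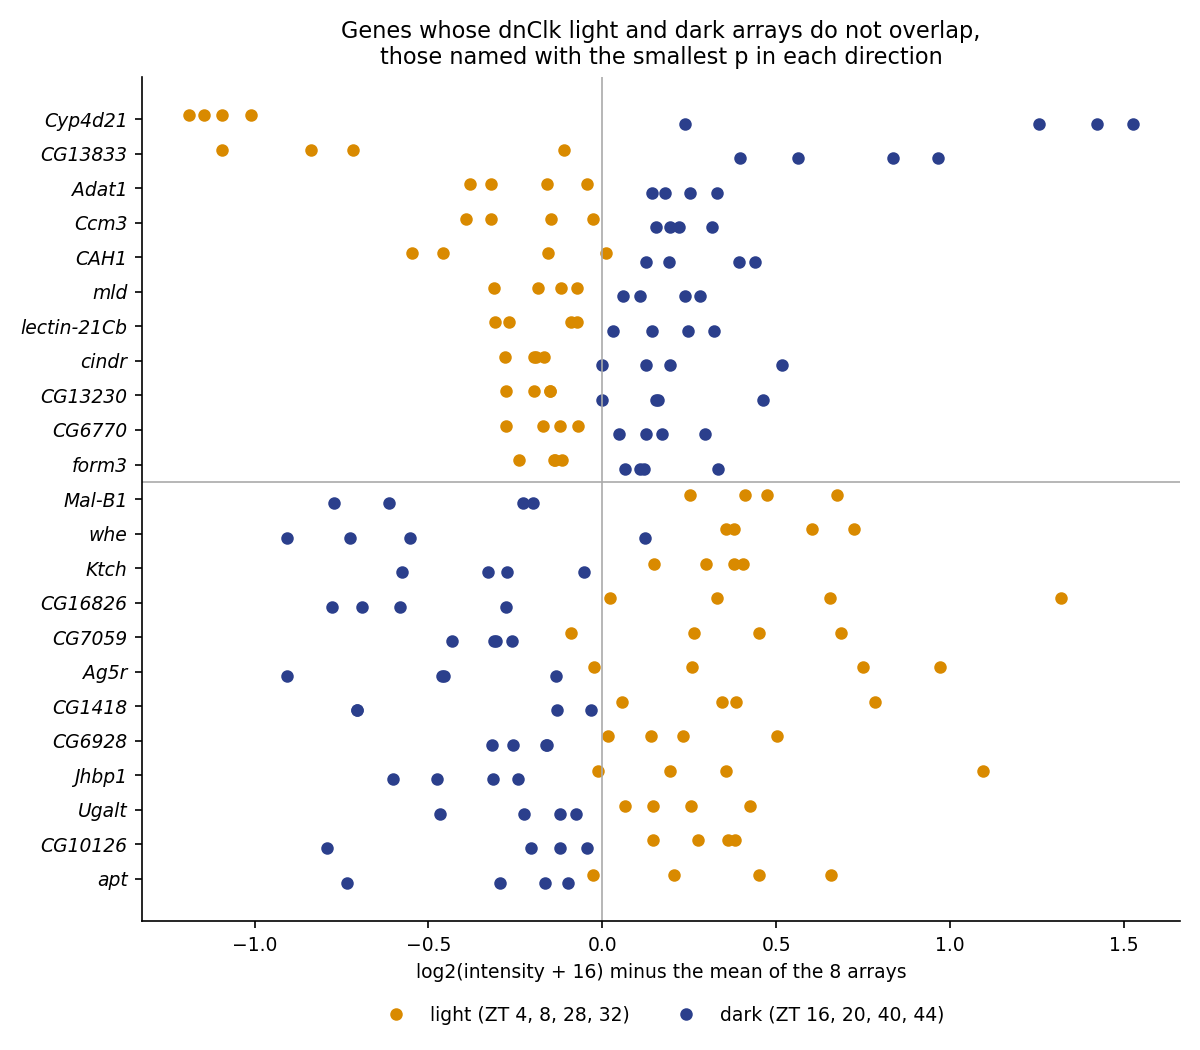
Each of the 8 dnClk arrays as log2(intensity + 16) minus the gene's mean over them, for the named genes with the smallest p in each direction among those whose light (orange) and dark (blue) arrays do not overlap. Genes were selected for separation, so a gap is given by the rule. Cyp4d21 spans the widest range, with ZT 44 as its lowest dark array.

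The core clock genes tim, per and vri, which Clock drives, read higher in dark than in light on average, by less than in WT and with no call after adjustment. For tim, which encodes Timeless, the light arrays read 8.21, 8.82, 8.56 and 9.60 and the dark arrays 10.06, 9.64, 10.14 and 9.33. The groups overlap, because ZT 32 is above ZT 44. The difference was -0.99 (SE 0.30, unadjusted p = 0.0097, adjusted p = 0.53), against -2.62 (SE 0.50) in WT, and the genotype difference was 1.63 (95% interval 0.29 to 2.96, unadjusted p = 0.02, adjusted p = 0.72). A second tim probe set, dimmer, differed by -0.71 in dnClk and by -1.66 in WT.

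For per, which encodes Period, the light arrays read 6.11, 6.11, 6.07 and 6.41 and the dark arrays 7.43, 6.55, 7.64 and 6.33. The light arrays are even, while ZT 16 and 40 stand more than 1 unit above the mean of light and ZT 20 and 44 lie near it. The difference was -0.81 (SE 0.29, unadjusted p = 0.021), against -1.56 (SE 0.33) in WT. The repressor gene vri read 7.51, 8.05, 7.74 and 8.51 in light and 8.78, 8.0, 8.92 and 8.06 in dark. Its light arrays are less even than those of per, and ZT 32 is above ZT 20 and 44. The difference was -0.49 (SE 0.28, unadjusted p = 0.11), against -1.58 (SE 0.49) in WT. In tim, per and vri the early night (ZT 16 and 40) was higher than the late night (ZT 20 and 44) on both days. The genotype differences of per (0.75, unadjusted p = 0.13) and vri (1.09, unadjusted p = 0.089) did not pass.

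The photoreceptor gene cry was the 1 core clock gene without overlap. It read 7.85, 7.13, 7.24 and 6.89 in light and 6.33, 6.61, 6.66 and 6.88 in dark, where ZT 32 and ZT 44 are nearly equal at the boundary. The difference was 0.66 (SE 0.21, unadjusted p = 0.012) in dnClk and 0.71 (SE 0.20) in WT, with a genotype difference of -0.05 (95% interval -0.68 to 0.58). Pdp1, an activator in the loop, differed by -0.34 (SE 0.13, unadjusted p = 0.026). The repressor gene cwo differed by -0.15, cyc, the partner of Clk, by -0.15 and Clk itself by 0.01, with unadjusted p-values of 0.38, 0.37 and 0.94. In WT the differences of Clk and cyc were 0.35 and -0.58. Of the 8 core clock genes 1 was higher in light and 3 higher in dark at an unadjusted p under 0.05, where 2.84% and 2.18% of all 8472 genes were (5.03% in all). None of the 8 passed after adjustment.

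**Figure D3:**
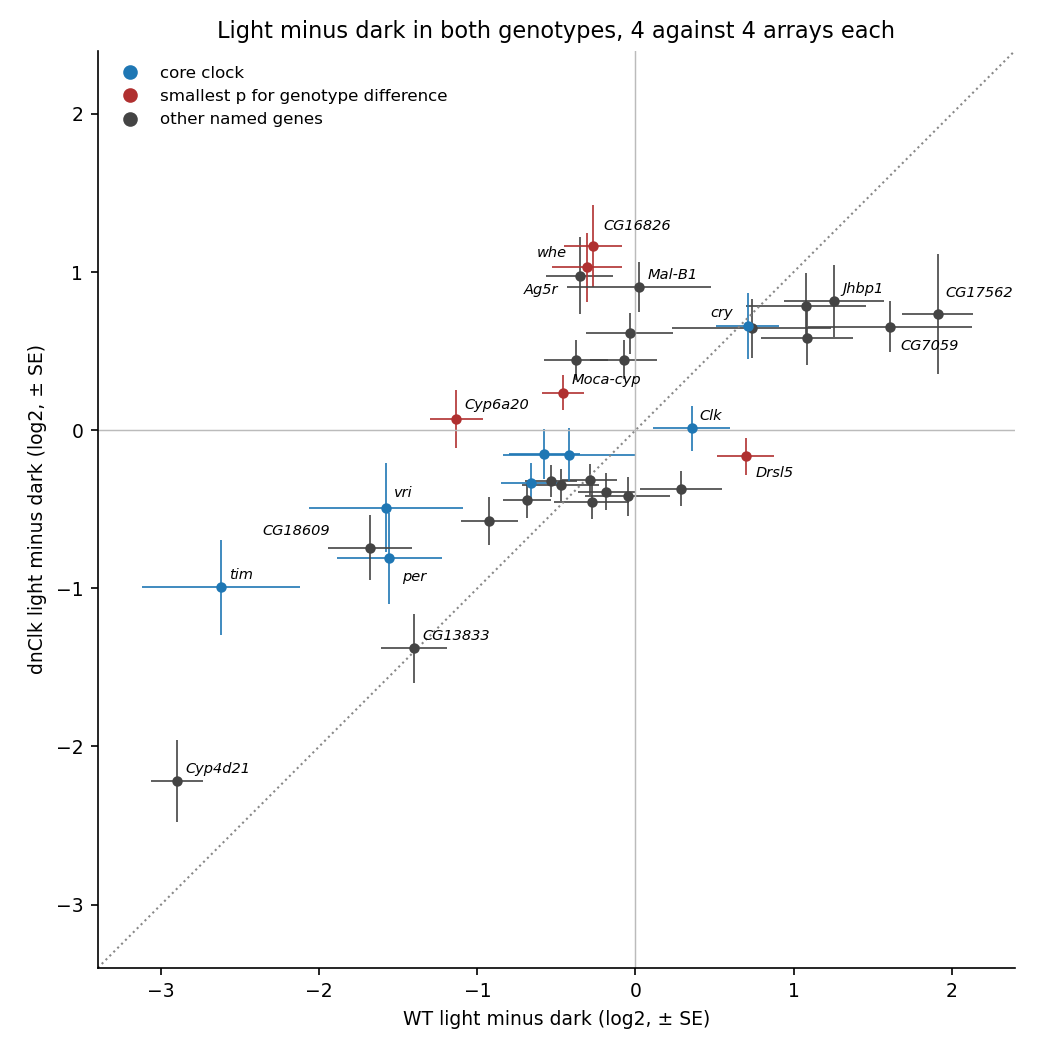
Light minus dark in dnClk (vertical) against WT at the same hours (horizontal), in log2 units with standard errors, for core clock genes (blue), the 5 genes with the smallest p for the genotype difference (red) and other named genes. The dotted line marks equal differences, near which CG13833 (-1.38 and -1.40) and cry (0.66 and 0.71) lie, while tim lies at -0.99 and -2.62.

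A contrast of midday with midnight cannot see transcripts that peak at the light switches. The predicted lipase gene sxe2 is such a case. It read 9.25, 8.27, 8.88 and 8.04 in light and 7.48, 8.69, 7.24 and 8.89 in dark, and the groups overlap, with a difference of 0.54 (SE 0.42, unadjusted p = 0.24). At lights on it read 9.35 and 9.03, and at lights off 7.44 and 6.94, a gap of more than 1 unit on each day. CG17562, a predicted fatty acyl-CoA reductase, read 10.81, 9.83, 10.00 and 9.25 in light and 8.44, 9.61, 9.09 and 9.81 in dark, so its groups overlap too. Its difference was 0.73 (SE 0.38, unadjusted p = 0.084) against 1.91 (SE 0.22, adjusted p = 0.057) in WT, a genotype difference of -1.18 (unadjusted p = 0.023).

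Genes of lipid metabolism lay in both directions, and none passed after adjustment. Of 16 elongases tested 3 were lower in light and 1 higher at an unadjusted p under 0.05, beside 2.18% and 2.84% of all genes. The 3 predicted elongases CG18609, CG9459 and CG9458 were lower in light by 0.74, 0.78 and 0.51, with unadjusted p-values of 0.0062, 0.027 and 0.038, and in WT by 1.68, 0.92 and 0.86. CG18609 read 10.32, 9.43, 9.66 and 9.37 in light and 10.26, 10.63, 10.44 and 10.42 in dark, and ZT 4 is inside the dark range. Elovl7, named after its value was seen, was 0.50 higher in light at an unadjusted p of 0.04, and the median of the list was -0.10, beside -0.016 over all genes. The largest difference in the list was that of CG31141, also named after its value was seen, which read 5.63, 8.21, 7.20 and 7.68 in light and 6.27, 7.11, 5.11 and 5.00 in dark. Its groups overlap, with a difference of 1.30 (SE 0.63, unadjusted p = 0.068) against 2.60 in WT, and of 0.030 with the mean of the testis markers as a covariate. The fatty acid synthase genes FASN2 and FASN3 were lower in light by 0.30 and 0.29 without overlap, and both are among the oenocyte markers. Among 8 genes of fatty acid synthesis 7 were lower in light (median -0.14), but after quantile normalization 5 of the 8 were higher (median 0.013).

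Of the other lipid lists, triglyceride assembly and lipolysis (10 genes, median -0.11) held Agpat2, an acyltransferase of phospholipid and triglyceride synthesis, 0.55 higher in light at an unadjusted p of 0.024, and the lipid droplet gene Lsd-2, 0.20 lower without overlap. Fatty acid oxidation (10 genes, median -0.036) held Acsl, a long-chain acyl-CoA synthetase, 0.33 lower in light at an unadjusted p of 0.03, without overlap. The 11 acyl-CoA reductases had a median of -0.0056, with none at an unadjusted p under 0.05, and CG14893 among them differed by 0.85 (SE 0.47). The lipoprotein gene apolpp and the lipocalin gene Karl were lower in light by 0.20 and 0.25 without overlap, beside 1.66% of all genes. In their list of 11 secreted carriers 10 were lower (median -0.075), beside 4543 of all 8472 genes. A second Karl probe set differed by 0.043, with groups that overlap.

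Maltases and amylases had the highest median of the 28 pathway lists, while the other carbohydrate lists lay near all genes. All 7 maltases and amylases tested were higher in light, with a median of 0.39, and 6 of the 7 were after median centring. Only Mal-B1 among them had an unadjusted p under 0.05. The maltase-like gene tobi read 7.52, 6.35, 6.53 and 7.49 in light and 5.87, 7.30, 6.41 and 6.05 in dark, and Mal-A6 ran from 6.24 to 7.74 in light and from 5.31 to 7.54 in dark. Both overlap, with differences of 0.56 (SE 0.38) and 0.54 (SE 0.49). The mean of 8 gut markers also varied widely between arrays, from 6.72 to 8.51 in light and 6.49 to 8.43 in dark, and its part in the maltase values was not tested. In WT the median of these 7 genes was 0.025. Glycolysis and gluconeogenesis (15 genes, median 0.022) held Ald1, an aldolase, 0.30 lower in light at an unadjusted p of 0.027. A second Ald1 probe set went the other way, 0.37 higher in light at an unadjusted p of 0.11, so the gene's direction is not settled. Glycogen and trehalose genes (9, median 0.0085) had none under 0.05, and the trehalose transporter gene Tret1-1 differed by -0.19 (SE 0.16).

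In the insulin and TOR list 9 of 10 genes were lower in light (median -0.18), with none at an unadjusted p under 0.05. With the testis markers as a covariate 7 of the 10 were lower (median -0.092), and S6k differed by -0.093. Members were S6k, a kinase downstream of TOR, at -0.29 (SE 0.14), and rictor, a subunit of TOR complex 2, at -0.22 (SE 0.12) without overlap. In WT they differed by -0.44 and -0.51. The fasting and FOXO list was lower in light in 9 of 11 genes (median -0.10), and with the testis markers as a covariate in 3 of 11. With that covariate 4327 of all 8472 genes were higher in light and 4145 lower, the background for both lists. Without it the insulin receptor gene InR differed by -0.24 (SE 0.18).

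Of 12 takeout-like genes 3 were higher in light at an unadjusted p under 0.05, namely Jhbp1, Jhbp11 (0.58) and Jhbp5 (0.80), and none was lower (median 0.14), beside 2.84% and 2.18% of all genes. Jhbp5 ran from 8.26 to 10.01 in light and from 7.89 to 8.44 in dark, so its groups overlap. The juvenile hormone list (6 genes, median 0.037) shares Jhbp1 and had no other member under 0.05. In the sex-biased and yolk list (6 genes, median -0.21) Cyp4d21 was the 1 gene under 0.05.

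Of 65 genes in the cytochrome P450 list 4 were lower in light at an unadjusted p under 0.05 and 0 higher (6.15% and 0% of the list, median -0.030), beside 2.18% and 2.84% of all genes. Beside Cyp4d21 these were Cyp18a1, which inactivates the moulting hormone (-0.49), Cyp6a21 (-0.76) and Cyp4g1, named after its value was seen (-0.28). Cyp6a21 read 8.44, 7.40, 7.57 and 7.19 in light and 8.29, 8.39, 8.33 and 8.64 in dark, and ZT 4 is the light array that falls in the dark range. The list also holds Cyp1 and Cyp40, which are cyclophilin genes and not cytochromes P450, and neither was under 0.05. Among 30 glutathione transferases GstD11 was lower in light by 0.44 at an unadjusted p of 0.026 (list median -0.026). None of 16 UDP-glycosyltransferases was under 0.05 (median 0.074), and Ugt36D1 differed by 0.59 (SE 0.34) against 1.33 (SE 0.30) in WT.

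Immune genes differed in both directions. Listericin, an antibacterial protein, was lower in light by 0.64 (SE 0.19, unadjusted p = 0.0082) and by 1.11 in WT. Mtk, which encodes the antimicrobial peptide metchnikowin, was higher in light by 0.73 (SE 0.21, unadjusted p = 0.0078) in dnClk and lower by 0.41 in WT, a genotype difference of 1.14 (unadjusted p = 0.0036, adjusted p = 0.72). The list of 7 antimicrobial peptides had a median of 0.091. The Turandot and immune-induced list (8 genes, median -0.14) had none under 0.05, and BomS2, a bomanin, differed by -0.24 (SE 0.14).

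Among ribosomal, respiratory and proteasome genes most members lay near the list median and others had large light-high values. Differences above 0.5 were found in 1 of 39 ribosomal, 10 of 67 respiratory and 6 of 34 proteasome genes, and in 0 of these with the mean of the testis markers as a covariate. That mean was itself higher in light, 8.91 against 7.91 in dark, so as a covariate it can take up light-dark differences of other origin. Over all tested probe sets the 75th percentile of the difference was 0.090 and the 95th was 0.915. Values above 0.5 are therefore not particular to these lists. Of 39 cytosolic ribosomal protein genes 33 were lower in light (median -0.14), but after quantile normalization 25 of the 39 were higher (median 0.017), so the direction of the list depends on scaling. RpS27A and RpL41 differed by -0.23 and -0.31. RpL10Aa, by contrast, read 6.72, 9.06, 8.37 and 8.85 in light and 7.27, 8.27, 5.86 and 5.87 in dark, a difference of 1.43 (SE 0.66, unadjusted p = 0.059). COX6CL (1.58), SdhCL (1.21) and the testis-specific proteasome subunit gene Prosalpha6T (0.73) had the same profile, with ZT 4 low among the light arrays and ZT 40 and 44 low among the dark arrays. With the testis markers as a covariate RpL10Aa differed by 0.073, COX6CL by 0.10 and Prosalpha6T by -0.047. The list medians were 0.0040 for 67 respiratory genes and -0.082 for 34 proteasome genes, with none under 0.05 in either.

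The remaining lists held few differences. Unfolded protein response genes (11, median -0.00098) included Hrd3, of the machinery that degrades misfolded secretory proteins, 0.27 higher in light without overlap. Among heat shock genes and chaperones (7, median -0.021) the co-chaperone gene stv was 0.22 lower without overlap. Antioxidant genes (11, median -0.0068) included the superoxide dismutase gene Sod3 at 0.27 (SE 0.19), and one-carbon and methyl cycle genes (9, median -0.086) included Sam-S, which makes S-adenosylmethionine, at -0.20 (SE 0.13). Clock kinases and degradation factors (7, median -0.073) included Cul3, a ubiquitin ligase scaffold, 0.58 higher in light at an unadjusted p of 0.046. Its difference was 0.16 on day 1 and 1.01 on day 2, and 0.14 over both days with the testis markers as a covariate. A second Cul3 probe set was 0.26 lower in light at an unadjusted p of 0.14, the opposite direction. The rule for named genes took 36 further list members, 12 higher and 24 lower in light, from -0.47 for fit, a secreted fat body factor induced by feeding, to 1.13 for the proteasome gene Rpn12R. Their unadjusted p-values ran from 0.062 to 0.71 and none was without overlap.

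**Figure D4:**
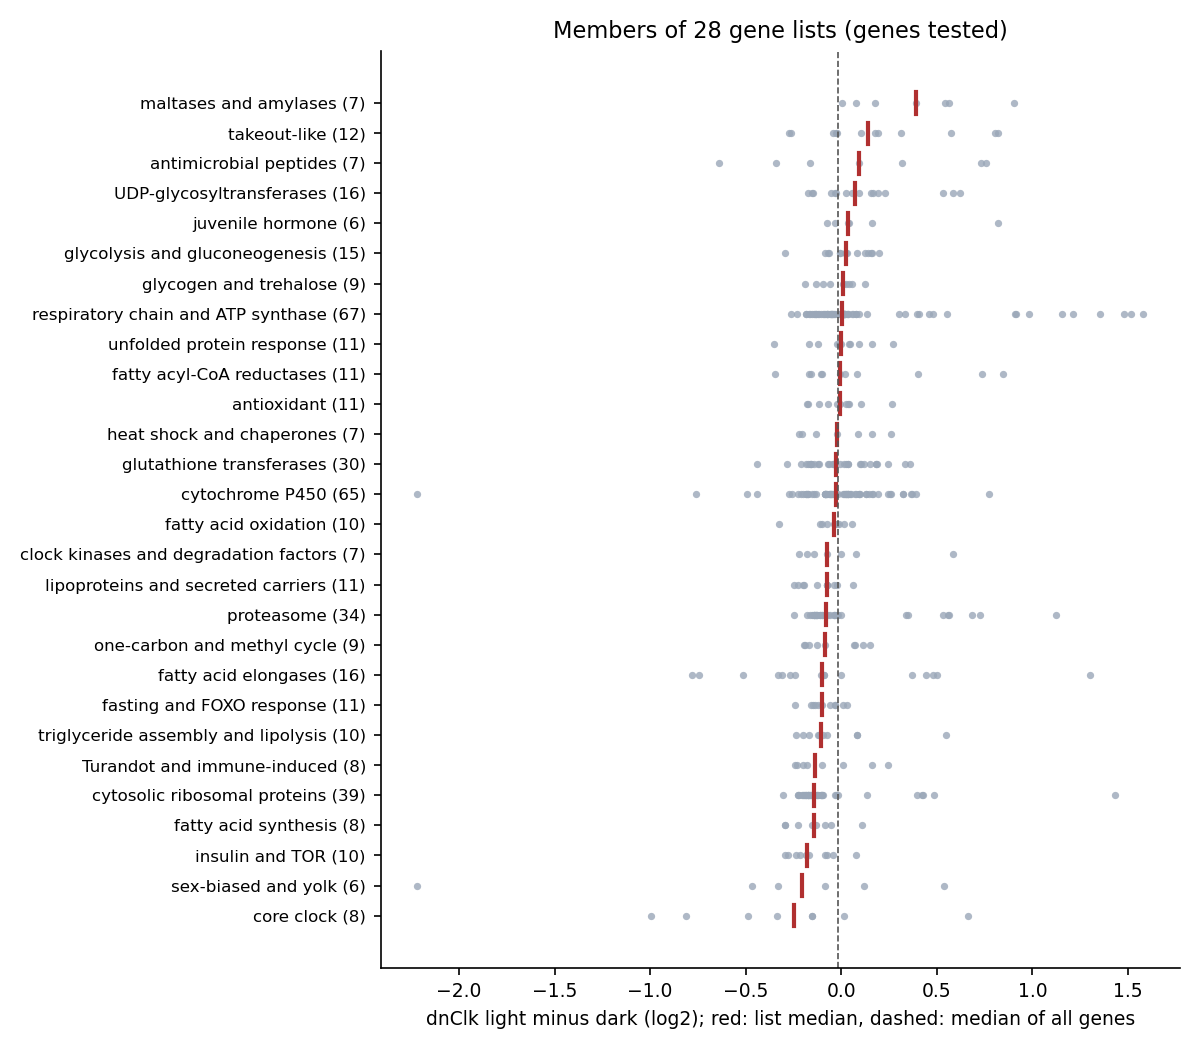
Light minus dark in dnClk (log2) for the tested members of the 28 gene lists, each point 1 gene, with the list median in red and the median of all 8472 tested genes dashed (-0.016). Maltases and amylases lie highest (median 0.39) and core clock genes lowest (median -0.24).

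Genes without overlap in dnClk were set beside those without overlap in WT at the same hours. Of the 81 light-high genes in dnClk 8 were also light-high in WT (9.88% of the dnClk genes and 5.41% of the 148 WT genes), among them cry, Jhbp1 and CG10126. Of the 141 dark-high genes 28 were also dark-high in WT (19.9% of the dnClk genes and 4.81% of the 582 WT genes), among them Cyp4d21, CG13833, CAH1, Ccm3, CG6770, Acsl, FASN2 and rictor. None was without overlap in opposite directions. By background, 1.75% of all genes were light-high and 6.87% dark-high without overlap in WT.

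The 5 genes with the smallest p for the genotype difference were Cyp6a20, Moca-cyp, CG16826, Drsl5 and whe. Cyp6a20, a cytochrome P450, read 8.07, 7.50, 8.02 and 7.99 in light and 7.80, 7.83, 8.19 and 7.48 in dark, overlapping fully, with a difference of 0.07 (SE 0.18). In WT it was lower in light by 1.13 (SE 0.17), and the genotype difference was 1.20 (95% interval 0.68 to 1.73, unadjusted p = 0.0002, adjusted p = 0.72). Moca-cyp, a cyclophilin-type gene, differed by 0.24 in dnClk and -0.46 in WT. Drsl5, a drosomycin-like peptide gene, differed by -0.16 in dnClk and 0.70 in WT, and its dnClk value turned to 0.029 after quantile normalization.

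RNA of other tissues varied between the pools. The mean of 18 testis markers was 7.90, 9.53, 8.95 and 9.25 in the light arrays and 8.46, 8.86, 7.01 and 7.30 in the dark arrays. ZT 40 and 44 are low, ZT 4 is the low light array, and the groups overlap (exact permutation p = 0.14, adjusted p = 0.48 over 14 measures). On day 1 the median difference of the markers was 0.0586 and on day 2 it was 2.06, with 17 of 18 higher in light over both days. Probe sets more than 1 log2 unit higher in light numbered 473 (4.2%) over both days, 37 on day 1 and 939 on day 2, against 9 (0.0799%) that much higher in dark over both days. With the testis markers as a covariate 13 of the 473 remained more than 1 unit higher in light. Their mean was higher in light on average, so this covariate too can take up light-dark differences of other origin. Day 2 alone, with 2 arrays a phase, gave 1441 called probe sets of the 11261 tested, 1136 of them higher in light. Among the 1441 were 15 of the 18 testis markers. Day 1 alone gave 0.

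**Figure D5:**
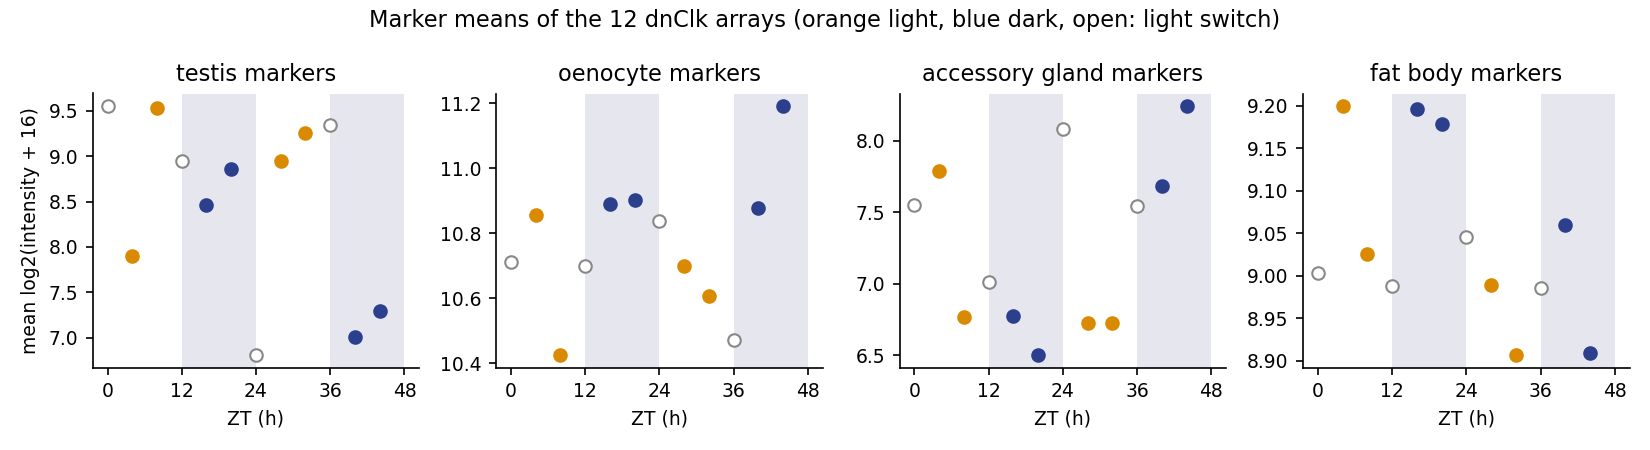
Mean log2(intensity + 16) of testis, oenocyte, accessory gland and fat body markers in the 12 dnClk arrays against ZT in hours, with light arrays in orange, dark arrays in blue and arrays at a light switch open. Testis markers fall to 7.01 and 7.30 in the dark arrays of the second day, while oenocyte markers lie between 10.88 and 11.19 in dark and between 10.42 and 10.86 in light.

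Oenocytes, which lie along the abdominal wall beside the fat body and make cuticular hydrocarbons, gave the 1 marker mean without overlap. Their 6 markers averaged 10.86, 10.42, 10.70 and 10.61 in light and 10.89, 10.90, 10.88 and 11.19 in dark, with ZT 44 highest (exact permutation p = 0.0286, the smallest the design allows, and adjusted p = 0.267). All 6 were lower in light, as were 4543 of all 8472 genes, and CG18609 is also among the 6. Without overlap were 3 of them (Cyp4g1, FASN2 and FASN3), beside 1.66% of all genes. In WT the 6 averaged 11.24 to 11.49 in light and 11.63 to 12.05 in dark. With the oenocyte mean as a covariate Cyp4d21 differed by -2.76, CG13833 by -1.22, tim by -1.60 and cry by 1.13, while CAH1 differed by -0.22 and CG18609 by -0.36. Of the 74 genes given here by value, 27 had a difference more than 1.5 times smaller with this covariate and 8 more changed sign. Among the 27 were Cyp6a21 (-0.18), CG9458 (-0.17), Agpat2 (0.14), CG10126 (0.19) and Jhbp5 (0.20). The oenocyte mean separates light from dark, so as a covariate it can take up light-dark differences of any origin. These changes therefore cannot tell oenocyte RNA from phase. CG18609, FASN2 and FASN3 are themselves part of the mean, so their changes under it are not independent of it. With the testis mean 22 were smaller by that much and 2 changed sign. Accessory gland markers (12) ran from 6.72 to 7.79 in light and from 6.50 to 8.24 in dark (exact permutation p = 0.63). The part of these tissues in the differences above was otherwise not tested.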

How the data were processed

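Total RNA was labelled with biotin by in vitro transcription and hybridised to Affymetrix arrays. The authors deposited 1 linear intensity for each probe set and array. Per the submitters' processing notes these came from MAS5, with no version given. They arrive scaled, with a trimmed mean of 150 on every array (2% off each end), and that scaling was kept. The number of arrays limits the precision. Control probe sets (183) were left out, and the 60% of the other 18769 with the highest mean log2 over all 36 arrays were tested. The dimmest had a geometric mean of 31.3 intensity units. Names came from the platform annotation (13647 probe sets with 1 symbol, 402 with several, 4720 with none), and 13544 symbols were updated through a gene table of assembly Release 6. Each gene was represented by its brightest probe set.

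Light minus dark was tested with limma 3.58.1 in R 4.3.3 (lmFit, eBayes, two-sided), adjusted by the Benjamini-Hochberg method over all tested probe sets with a threshold of 0.05. Unadjusted p-values of genes and probe sets are limma's unless a permutation is named. Array measures had two-sided exact permutation tests. Samples were grouped by title, with no identical arrays. The scripts were tested on simulated data.

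The arrays compared, the 28 pathway and 9 marker lists and the tests were chosen with earlier results of these data known. The rule named core clock genes, the 12 smallest p-values in each direction without overlap, the 5 smallest for the genotype difference and up to 3 per list, 111 genes in all. The text gives 74 by value and 36 list members as a range, and 1 gene is not reported here. Alternatives covered pseudocount, filter, scaling, prior, day, tissue covariates, other fits and single arrays left out. The oenocyte covariate and the testis covariate on the large differences were added after seeing the data.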

Additional observations from a re-analysis of the deposited data

Results flagged for a closer look

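In groups of 4 arrays, 15 of 176 groups tested had 1 array standing apart from the other three by a gap that took up most of the group's range (beyond Dixon's 95% critical value), where chance gives about 1 in 20. The groups share arrays, so these are not independent. ZT 44, the dnClk array with the highest 3' to 5' ratios, stood apart in 5 of the dark groups. It was high for FASN2 (11.56, others up to 11.03), for the ribosomal protein gene RpS27A (11.66, others 11.32 to 11.37) and for the oenocyte marker mean (11.19, others 10.88 to 10.9). It was low for Sod3 (6.85, others 7.49 to 7.56) and for Tret1-1 (10.45, others 10.76 to 10.8). Other dark arrays apart were ZT 40 for Karl (7.48, others 7.25 to 7.27) and ZT 16 for apolpp (11.48, others 11.33 to 11.35).

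Among the light arrays ZT 8 was low for FASN2 (10.67, others 10.9 to 10.93), Cyp6a20 (7.5, others 7.99 to 8.07) and stv (8.56, others 8.91 to 8.96). ZT 32 was high for per (6.41, others 6.07 to 6.11) and low for rictor (7.22, others at 7.51) and Moca-cyp (6.71, others 6.86 to 6.89). ZT 4 was high for CG9459 (9.8, others 8.45 to 8.66) and for the accessory gland marker mean (7.79, others 6.72 to 6.76).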

How the results depend on the processing

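The dnClk count of 0 held under 14 other pseudocounts, filters, scalings, priors, blocks, covariates and fits. It was 1, Cyp4d21, with the 12 arrays in 4 groups and again with the accessory gland covariate, 1441 on day 2 alone, and 0 to 1 with 1 array left out. At an unadjusted p under 0.05 it ran from 74 to 3261, beside 635. Dark-high probe sets without overlap were 402 after quantile normalization and 370 after median centring. WT calls were 35 with 20 arrays and ran from 1 to 1603 with 1 array left out. The genotype difference ran from 0 to 12, and was 0 with collection time, which the genotypes share, as a replicate block. Arrays of the same time did not deviate together (r from -0.821 to 0.469 across probe sets in 8 pairs, 0 of them closest to their own time), so they were not treated as paired. Of 1839 pairs of 74 named genes and 25 alternatives 22 passed the threshold and 19 changed sign. Filters, prior, day block, the 4 groups, the 24 h curve and the exact permutation test leave the difference itself unchanged by design. Those alternatives could not change a sign, and the exact permutation test could not pass any probe set. With the oenocyte covariate the values were Cul3 -0.099, COX6CL -0.063, SdhCL -0.019, RpL10Aa -0.061, FASN2 0.047, Prosalpha6T -0.29, Drsl5 0.035 and cyc 0.13. With the testis covariate Prosalpha6T was -0.047 and cyc 0.0073. On day 1 Sam-S was 0.034, cwo 0.076 and Cyp6a20 -0.027, and after quantile normalization Drsl5 was 0.029. Clk was -0.15 on day 2 and from -0.11 to 0.087 with 1 array left out, and Cyp6a20 ran from -0.042 to 0.20. The cause was not tested. With 4 arrays a phase and no repeated time, spread within a phase limits what can pass.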
